A study of Mus musculus with 8 samples.

Results

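The 9 genes described here encode proteins of the junctions that form the blood-testis barrier, and they were taken from the deposited table of 54532 genes by name: *Cldn3*, *Cldn5*, *Cldn11*, *Ocln*, *Tjp1*, *Gja1*, *Cdh2*, *Cxadr* and *Jam3*. All 9 were present once each in the table, and all 9 passed the filter on low values. The barrier lies between neighbouring Sertoli cells, the somatic cells that surround the germ cells of a seminiferous tubule, and it separates spermatogonia and the earliest spermatocytes at the tubule wall from the meiotic cells above it. Claudins and occludin form its tight junction strands, ZO-1 links these strands to actin, and cadherin and connexin junctions lie beside them. Preleptotene spermatocytes cross the barrier by the assembly of new junctions below them, so that pachytene spermatocytes are on its luminal side.

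RNA was measured by bulk RNA-seq in whole testes of 4 control and 4 cKO mice, 1 library per mouse. Control mice were Spdyafl/fl, and cKO mice were Spdyafl/fl;Ddx4-CreERT2, in which tamoxifen activates a germ cell Cre that removes exon 2 of *Spdya*. Both groups are described on a C57BL/6J background, both received an inhibitor of retinoic acid synthesis as pups and retinoic acid (RA) on postnatal day 9, both were given tamoxifen at RA7.5 and RA8.5 according to the labels (the study's methods give slightly earlier times), and both were collected as juveniles at RA11.5, in mid-late pachynema. Control mice lack the Cre, so the Cre itself and the loss of *Spdya* cannot be told apart. Since *Ddx4* is a germ cell gene, the deletion is not directed at the Sertoli cells in which most of these junction genes are known to be transcribed. The comparison of the groups therefore asks whether junction RNA differs in testes whose germ cells lack SpdyA. RNA came from whole testes, so that fewer cells of a type and less RNA per cell cannot be told apart.

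Fragments on genes ranged from 13978342 to 17867570 in the control libraries and from 15494873 to 19583091 in the cKO libraries. *Spdya* was at 19.7 to 23.8 FPKM (fragments per kilobase of gene length, scaled to the size of the library) in the control libraries and 17.7 to 30.5 FPKM in the cKO libraries, and its whole-gene level gave no check of the labels. Control replicate 1 stood apart, with 0.464% of its fragments on mitochondrial genes against 2.20% to 3.74% in the other 7 libraries, so results that rest on it are also given without it. The tissue carried the RNA of Sertoli cells. Of 18 other Sertoli cell markers, 17 were tested, none was listed at 0 in every library, and their summed level was 2285 to 3224 FPKM in the control and 2844 to 3320 FPKM in the cKO libraries. *Sox9*, a transcription factor of Sertoli cells, was at 21.5 to 32.4 FPKM over the 8 libraries.

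None of the 9 junction genes was called DE between the groups (limma, adjusted p below 0.05 and absolute log2 fold change above 1), where 2 of 12141 tested genes, or 0.0165%, were called. None of the 9 had an unadjusted p below 0.05, against 10.9% of all genes, and in none were the groups without overlap, against 6.24% of all genes. In the cKO libraries 5 of the 9 were higher and 4 lower, with log2 fold changes from -0.14 to 0.35 and a median of 0.10, beside a median of 0.01 over all genes tested. The median of the 9 was -0.0037 without control replicate 3 and 0.20 with array weights, and with any other library left out it was between 0.04 and 0.13. The limma adjusted p of the 9 genes lay between 0.675 and 0.890. The 95% interval of every one of the 9 log2 fold changes was inside -1 to 1, and for 5 of them (*Cldn11*, *Tjp1*, *Cdh2*, *Ocln* and *Cxadr*) it was inside a 1.5-fold change in either direction.

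*Cldn11* was the highest of the 9 in every library, 6.72 times the mean of *Tjp1*, which was in turn 2.05 times that of *Gja1*, and neither step had overlapping ranges. *Gja1* and *Jam3* changed order between libraries (*Gja1* was the higher in 5 of 8), as did *Cdh2* and *Cldn5* (5 of 8) and *Cldn5* and *Ocln* (4 of 8). *Jam3* was above *Cdh2* in 8 of 8 libraries, although their ranges overlapped. *Ocln* was above *Cxadr* in 8 of 8 with ranges that did not overlap, and *Cxadr* was above *Cldn3*, the lowest of the 9, in 6 of 8. These levels are FPKM, a value per gene length.

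**Figure D1:**
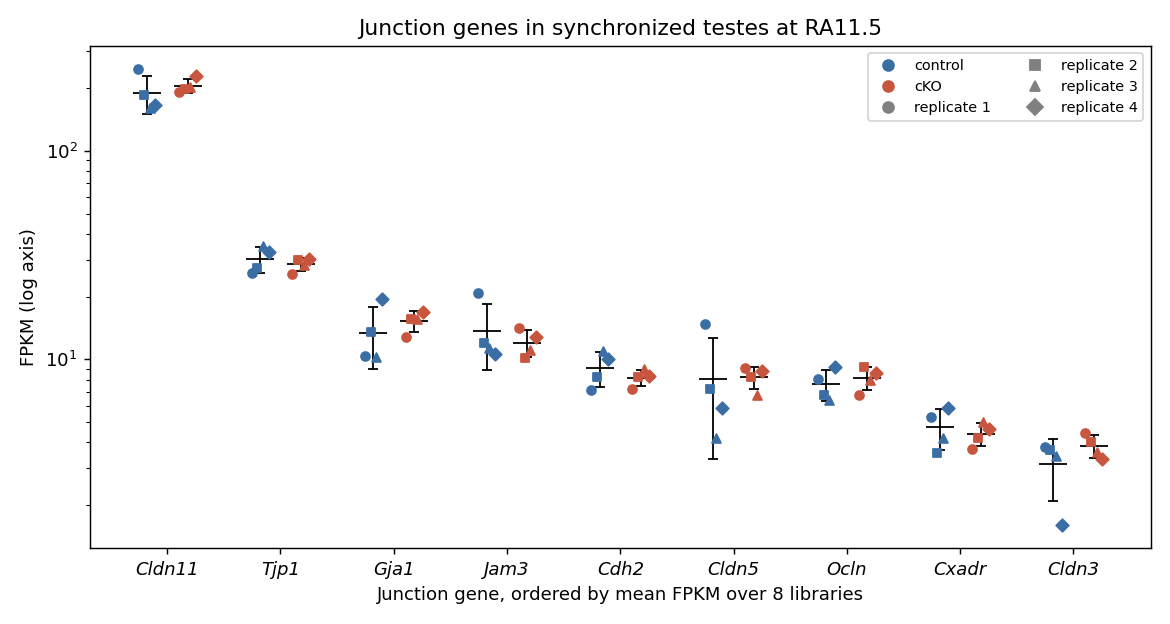
FPKM (log axis) of the 9 junction genes in each library, control in blue and cKO in red, with a marker shape for each replicate number and the mean ± SD of 4 libraries as black bars. *Cldn11* lies above 161 FPKM in every library, the 8 other genes below 35 FPKM, and the groups overlap in all 9 genes.

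Among the strand proteins of the tight junction, *Cldn11* (ENSMUSG00000037625, chromosome 3 of GRCm38, 31149920 to 31164324) encodes the claudin on which Sertoli cell tight junctions depend. It was at 248, 186, 161 and 165 FPKM in control replicates 1 to 4 and at 193, 197, 202 and 229 FPKM in cKO replicates 1 to 4. Control replicate 1 was the highest of all 8 libraries, while the other 3 controls were below all 4 cKO libraries. Over all libraries the log2 fold change was 0.13 ± 0.16 (SE, limma adjusted p = 0.823). Without control replicate 1 it was 0.26, with an unadjusted limma p below 0.05 and an adjusted p of 0.281, so the difference was not called with or without that library.

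*Cldn5* (ENSMUSG00000041378, chromosome 16, 18776847 to 18778262) encodes a claudin that Sertoli cells share with the endothelium of blood vessels. Its levels were 14.8, 7.25, 4.20 and 5.86 FPKM in the control libraries and 9.11, 8.23, 6.78 and 8.78 FPKM in the cKO libraries. Its control libraries spread 3.53-fold, the widest range of the 9 genes, and control replicate 1 was again the highest and control replicate 3 the lowest of all 8. The log2 fold change was 0.18 ± 0.31 (SE, limma adjusted p = 0.874). It was 0.53 without control replicate 1 (limma adjusted p = 0.208, below 0.05 only before adjustment) and turned to -0.069 without control replicate 3.

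*Cldn3* (ENSMUSG00000070473, chromosome 5, 134986214 to 134987472) encodes a claudin known from newly assembled barrier junctions. It was the least abundant of the 9, at 3.82, 3.68, 3.46 and 1.60 FPKM in the control libraries and 4.42, 4.03, 3.58 and 3.32 FPKM in the cKO libraries. Control replicate 4 stood below the 7 other libraries. Its value rests on 33 fragments, with a 95% Poisson interval of 1.10 to 2.25 FPKM that lies below the intervals of all other libraries, the lowest of which starts at 2.59 FPKM. These intervals cover counting error only. The log2 fold change of 0.35 ± 0.25 (SE, limma adjusted p = 0.675) was the largest of the 9 and fell to 0.06 without control replicate 4.

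*Ocln* (ENSMUSG00000021638, chromosome 13, 100496507 to 100552718) encodes occludin, a membrane protein of the strands that is not a claudin. It was at 8.06, 6.77, 6.39 and 9.24 FPKM in the control and 6.77, 9.20, 7.99 and 8.65 FPKM in the cKO libraries. The groups covered almost the same range, with a log2 fold change of 0.10 ± 0.14 (SE, limma adjusted p = 0.844).

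The claudin composition of the testes was compared as ratios within a library. Shares of summed FPKM do not depend on how a library was scaled. The log2 ratios, taken of FPKM + 0.1, depend on it only through the added 0.1. Of 25 claudin genes in the table, 7 had a mean above 1 FPKM, and 14 were below 0.1 FPKM. *Cldn11* made up 86.9%, 87.6%, 87.3% and 87.4% of the summed claudin FPKM in the control libraries and 87.0%, 87.7%, 86.6% and 88.7% in the cKO libraries. As *Cldn11* is most of this sum, its share can move little when the other claudins change. The share of *Cldn5* was 5.20% in control replicate 1, 2.27% to 3.42% in the other controls and 2.91% to 4.11% in the cKO libraries. That of *Cldn3* ran from 0.846% in control replicate 4 to 2.00% in cKO replicate 1. *Cldn12*, a claudin that is not among the 9, was second with a mean of 9.96 FPKM. The log2 ratio of *Cldn3* to *Cldn11* was -5.93 ± 0.49 in the control and -5.71 ± 0.28 in the cKO libraries (SD, n = 4 each), a difference of 0.22 that did not exceed their spread (two-sided exact permutation p = 0.514, or 0.857 adjusted over 3 ratios), and it was -0.0053 without control replicate 4. That of *Cldn5* to *Cldn11* was -4.68 ± 0.49 and -4.63 ± 0.20 in the same order (two-sided exact permutation p = 0.857 before and after adjustment). With 4 libraries against 4 this test cannot give a p below 0.0286.

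*Cldn5* was also set against *Cdh5*, the cadherin of endothelial junctions. *Cdh5* was at 1.92, 4.65, 3.42 and 5.94 FPKM in the control and 5.63, 5.78, 5.80 and 7.57 FPKM in the cKO libraries. In control replicate 1, where *Cldn5* was highest, *Cdh5* was lowest, and the log2 ratio of *Cldn5* to *Cdh5* there was 2.88, against -0.019 to 0.63 in the other 3 controls and 0.21 to 0.68 in the cKO libraries. The endothelial list was not high in that library, where its 10 genes summed to 13.4 FPKM, against 12.8 to 20.7 FPKM in the other controls. The ratio did not differ between the groups beyond this spread (difference -0.54, two-sided exact permutation p = 0.686, adjusted 0.857), and the difference was 0.11 without control replicate 1.

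*Tjp1* (ENSMUSG00000030516, chromosome 7, 65296165 to 65527781) encodes ZO-1, the scaffold that ties tight junction strands to the actin cytoskeleton. It was at 25.9, 27.4, 34.8 and 32.9 FPKM in the control and 25.7, 29.8, 28.4 and 30.2 FPKM in the cKO libraries. All 4 cKO libraries lay within or just under the control range, and the log2 fold change of -0.07 ± 0.12 (SE, limma adjusted p = 0.862) had the smallest error of the 9. Its highest library was 1.36 times its lowest, the narrowest range of the 9 genes.

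*Cxadr* and *Jam3* encode adhesion proteins of the immunoglobulin superfamily that sit at Sertoli cell contacts and are also found on germ cells. *Cxadr* (ENSMUSG00000022865, chromosome 16, 78301489 to 78359774) was at 5.32, 3.56, 4.19 and 5.83 FPKM in the control and 3.71, 4.19, 5.02 and 4.65 FPKM in the cKO libraries. Every cKO value was inside the control range, and the log2 fold change was -0.09 ± 0.17 (SE, limma adjusted p = 0.890). *Jam3* (ENSMUSG00000031990, chromosome 9, 27097384 to 27155421) was at 20.7, 12.0, 11.4 and 10.6 FPKM in the control and 14.2, 10.2, 11.1 and 12.8 FPKM in the cKO libraries. Control replicate 1 was far above the rest, and the log2 fold change of -0.14 ± 0.21 (SE, limma adjusted p = 0.856) became 0.08 without it.

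*Gja1* (ENSMUSG00000050953, chromosome 10, 56377330 to 56402513) encodes connexin 43, the main gap junction protein of Sertoli cells. It was at 10.4, 13.5, 10.2 and 19.6 FPKM in the control and 12.8, 15.6, 15.6 and 16.9 FPKM in the cKO libraries. Control replicate 4 was the highest and control replicates 1 and 3 the lowest of the 8 libraries, with the cKO libraries between them. The log2 fold change was 0.23 ± 0.20 (SE, limma adjusted p = 0.742), and without control replicate 4 it was 0.42 (limma adjusted p = 0.216, below 0.05 only before adjustment).

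*Cdh2* (ENSMUSG00000024304, chromosome 18, 16588877 to 16809246) encodes N-cadherin, the adherens junction protein of the barrier. It was at 7.12, 8.25, 10.9 and 10.0 FPKM in the control and 7.18, 8.28, 8.95 and 8.32 FPKM in the cKO libraries. The cKO values again lay inside the control range, and the log2 fold change was -0.13 ± 0.14 (SE, limma adjusted p = 0.794).

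**Figure D2:**
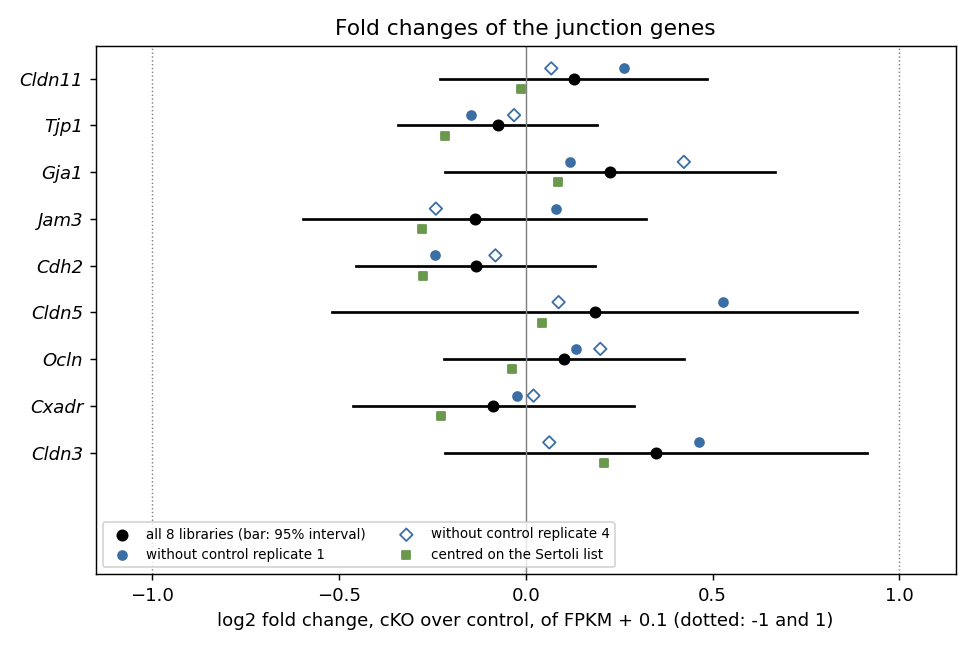
Log2 fold change (cKO over control, of FPKM + 0.1) of each junction gene from all 8 libraries (black, bar for the 95% interval), without control replicate 1 or 4 (blue) and with each library centred on the Sertoli list (green). All 9 intervals include 0 and stay between the dotted lines at -1 and 1, and the points that move furthest are *Cldn5* without control replicate 1, at 0.53, and *Cldn3* without control replicate 4, at 0.06.

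The libraries of a group varied among themselves, and more so in the control group. The control libraries had the larger standard deviation on the log2 scale in all 9 genes, which was also so in 81.3% of all genes tested, and in 7 of the 9 without control replicate 1 (64.9% of all genes). Relative to the mean of the 8 libraries on the log2 scale, control replicate 1 was higher for *Cldn5* by 0.94, for *Jam3* by 0.72 and for *Cldn11* by 0.34. In the same library *Gja1* was at -0.43, *Cdh2* at -0.26 and *Tjp1* at -0.17, so the junction genes did not move as a block. The 3 that were high there have gene lengths of 1416, 3200 and 1870 bases, and the 3 that were low 10257, 8066 and 7811 bases, while *Cxadr*, at 7400 bases, was at 0.24. The part of length in this pattern was not tested. Control replicate 4 was highest for *Gja1*, *Ocln* and *Cxadr* and lowest for *Cldn3*, and control replicate 3 was lowest for *Cldn11*, *Cldn5*, *Gja1* and *Ocln*. In contrast, cKO replicates 3 and 4 held neither the highest nor the lowest value of any of the 9 genes.

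**Figure D3:**
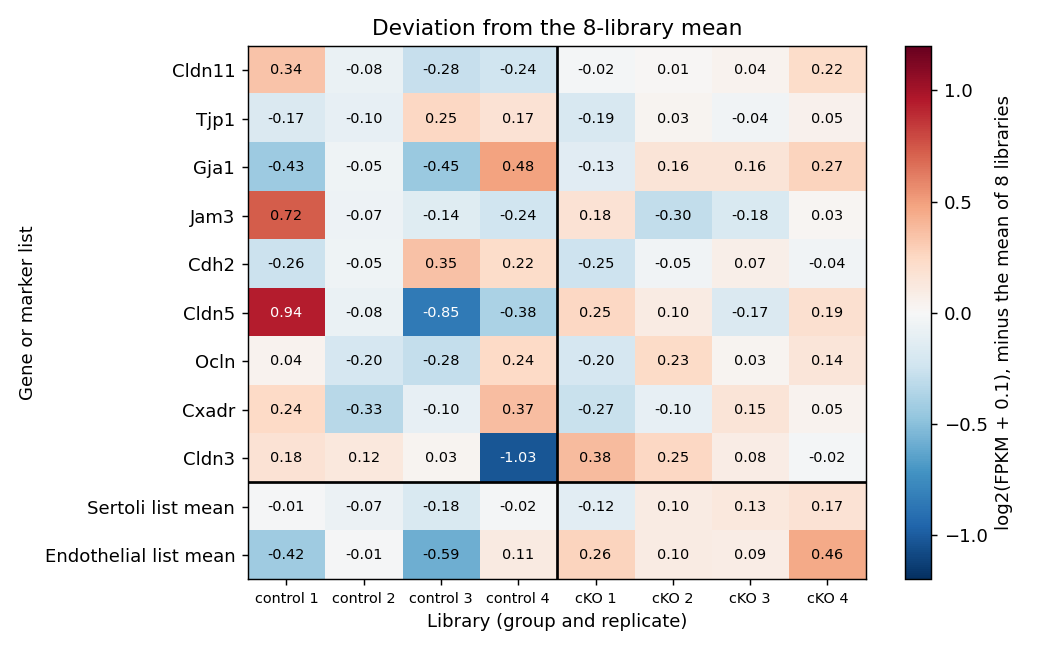
Deviation of log2(FPKM + 0.1) from the mean of 8 libraries for the 9 junction genes and for the mean of the tested genes of the Sertoli and endothelial lists, with libraries in columns and the groups divided by a line. *Cldn3* in control replicate 4 (-1.03), *Cldn5* in control replicates 1 (0.94) and 3 (-0.85) and *Jam3* in control replicate 1 (0.72) depart most among the 9 genes. The Sertoli row stays within -0.18 to 0.17, but it is a mean over 17 genes and so not comparable with the row of a single gene.

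The Sertoli list itself had a small median difference between the groups. Of its 17 tested genes 13 were higher and 4 lower in the cKO libraries, where 52.0% of all genes were higher. The median log2 fold change was 0.08 (-0.06 to 0.18 over the scalings, filters, weights and left-out libraries tried). No gene of the list had an unadjusted limma p below 0.05, but 4 did with array weights and 4 without control replicate 4. When each library was centred on the mean of this list, which moved the median of all genes to -0.13, *Cldn11* was at -0.012 and *Ocln* at -0.037, which was also the median of the 9, and *Tjp1*, *Jam3*, *Cdh2* and *Cxadr* were at -0.21 to -0.28. None of the 9 was called on that scale, and the lowest limma adjusted p among them was 0.517, for *Cdh2*. Among the genes tested, those whose levels followed *Cldn11* most closely over the 8 libraries were *Ppp2r1a* (Pearson's r = 0.985), *Slc4a2* (0.983), *Lgr4* (0.983), *Sumf1* (0.977) and *Sh3tc2* (0.971), and over the 7 libraries without control replicate 1 their r was 0.963 to 0.974. No other junction gene was among them. The closest of the 9 was *Cldn5* (r = 0.894), and *Tjp1* (-0.648) and *Cdh2* (-0.760) ran opposite to *Cldn11*. Without control replicate 1 their r were weaker, at 0.806, -0.522 and -0.664 in this order. These correlations describe 8 libraries that share their normalization and were ranked over all genes.

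A wider list held 61 further genes of tight, gap and adherens junctions, the ectoplasmic specialization and desmosomes. Of these, 43 were tested, and 0 had a limma adjusted p below 0.05. At an unadjusted p below 0.05 there were 8, or 18.6% against 10.9% of all genes, of which 7 were higher and 1 lower in the cKO libraries. This count was 3 without cKO replicate 4, 4 without cKO replicate 3, 4 with libraries centred on the Sertoli list and 15 with array weights. The same 2 left-out libraries and array weights also moved the count over all genes, from 1322 to 687, 799 and 2543. None of the 8 was among the 16 tight junction genes (median log2 fold change 0.05) or the 5 gap junction genes (0.09). Both medians fell below 0 under some alternatives (lowest -0.09 and -0.12). Under alternatives, up to 3 tight junction genes (array weights) and up to 1 gap junction gene (as without control replicate 1) had an unadjusted p below 0.05. The adherens and ectoplasmic specialization genes had a median of 0.20 (0.06 to 0.28 over the alternatives), with 16 of 20 higher, 5 of them at p below 0.05, and 1 of the 4 lower ones. Both tested desmosome genes, *Pkp2* and *Jup*, were higher at p below 0.05. The 1 lower gene was *Nectin3*, an adhesion protein between Sertoli cells and spermatids, with a log2 fold change of -0.46 (limma adjusted p = 0.408). Every cKO library was above every control library in 5 of the 43 genes, and below in 0, where 6.24% of all genes had groups without overlap. The 4 genes with the smallest p, chosen for it, are among these 5. *Cdh3*, which encodes P-cadherin, was at 1.29, 0.906, 1.43 and 1.66 FPKM in the control and 2.04, 2.10, 2.04 and 2.11 FPKM in the cKO libraries, a log2 fold change of 0.64 ± 0.18 (SE, limma adjusted p = 0.266). *Pkp2*, a desmosomal plaque protein, was at 2.22, 2.11, 1.56 and 1.39 FPKM and at 2.35, 2.77, 2.69 and 2.79 FPKM (0.54 ± 0.17, adjusted p = 0.304). *Espn*, the actin bundler of the ectoplasmic specialization, was at 24.3 ± 6.06 FPKM (18.2 to 30.3) and at 33.8 ± 2.45 FPKM (30.6 to 36.5, SD, n = 4 each) (0.51 ± 0.17, adjusted p = 0.325). *Ctnna1*, alpha-catenin of adherens junctions, was at 40.1, 41.4, 40.6 and 43.0 FPKM and at 50.6, 46.4, 48.5 and 51.3 FPKM (0.25 ± 0.09, adjusted p = 0.346).

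Markers of cells outside the tubules were also compared between the groups. All 7 tested endothelial, 6 macrophage, 4 peritubular and 3 Leydig cell markers were higher in the cKO libraries, with medians of 0.41, 0.60, 0.42 and 1.02 on the log2 scale. Without control replicate 1 these medians were 0.40, 0.40, 0.44 and 0.78, and without control replicate 4 the peritubular median was 0.26 over 3 genes. Over all alternatives the lowest were 0.24, 0.24, 0.25 and 0.59. Their summed FPKM was 12.8 to 20.7 in the control and 19.8 to 26.0 in the cKO libraries for the endothelial list, 14.3 to 25.5 and 27.4 to 34.6 for the macrophage list, 45.6 to 76.6 and 75.4 to 105 for the peritubular list, and 16.5 to 37.9 and 28.6 to 46.7 for the Leydig list, and no marker of these lists was at 0 in every library. Of the spermatocyte markers 7 of 8 tested were lower, with a median of -0.25 (-0.39 to -0.17 over the alternatives). The summed levels of this list were 1169 to 1817 FPKM in the control and 962 to 1510 FPKM in the cKO libraries. Below the filter, *Hist1h1t* (mean 0.279 FPKM in the control and 0.667 FPKM in the cKO libraries) and *Spag6* (0.579 and 0.799 FPKM) were higher. With the filter at a mean of 0.1 FPKM, the median over 10 genes was -0.19. None of the tested markers of these lists had a limma adjusted p below 0.05. The other lists were mixed or short. Of 8 spermatogonial markers 6 were higher and 2 lower (median 0.12), with *Stra8* among the lower at -1.46 (limma adjusted p = 0.280). The 2 tested spermatid markers (median 0.21) and 3 tested blood markers (0.87) were higher. With the filter at a mean of 0.1 FPKM, the spermatid median was -0.08 over 4 genes and the blood median 0.52 over 5. Without a filter the spermatid median was -0.18 over 7 genes, so its direction depended on the filter. The part of cell composition in the junction differences was not tested.

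**Figure D4:**
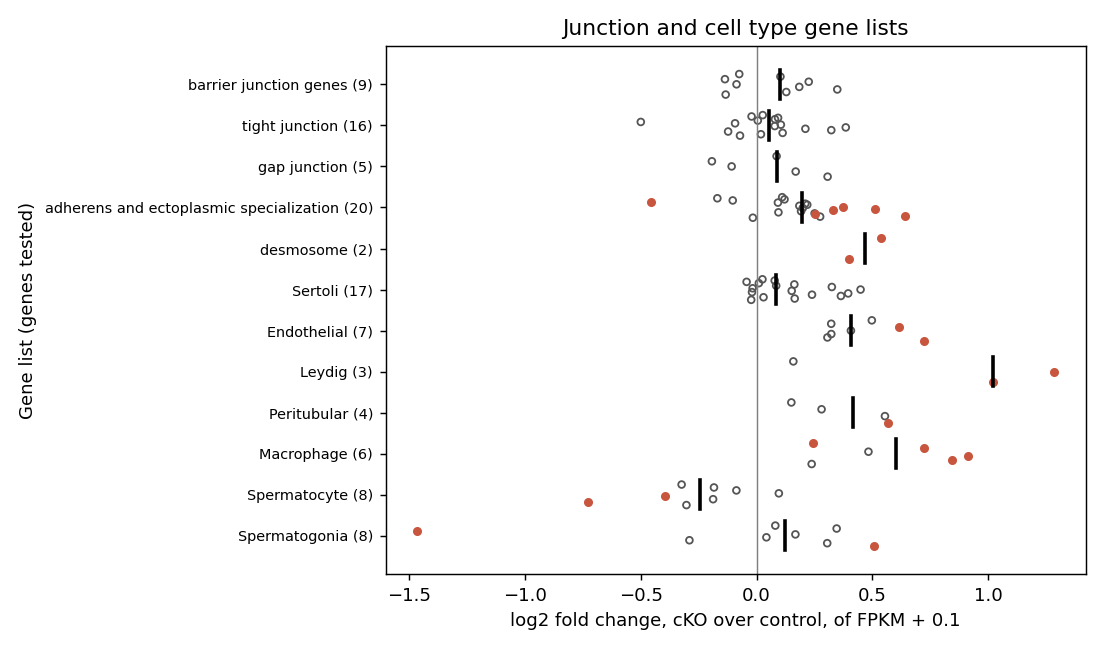
Log2 fold change (cKO over control, of FPKM + 0.1) of the tested genes of each junction and cell type list, 1 point per gene, filled red at an unadjusted limma p below 0.05, with the list's median as a black bar and the number of genes tested in parentheses. The 9 barrier junction genes lie around 0 with a median of 0.10 and no red point, as do the Sertoli markers (0.08), while the endothelial, macrophage, peritubular and Leydig lists lie above 0.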

How the data were processed

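Whole testes of 4 control and 4 cKO mice were measured by paired-end bulk RNA-seq, and the authors deposited FPKM values made with the sequencing company's software, in a table with a gene length per gene. The submitters' processing notes name GRCm38 (mm10). The aligner, the counter and the use of strand are not given in the sources used here. The start and end of all 9 genes equalled those in GENCODE M21. In that annotation exons of *Cldn3*, *Cxadr* and *Jam3* overlap exons of genes on the other strand, whose fragments could be counted with them if strand was not used. The 8 files of single libraries repeated the table and were not used. FPKM times length gave whole fragments in 99.986% or more of the values above 0 (tolerance 0.02), from which depth was recovered. The library size used in the FPKM was 0.938 to 1.053 times the recovered fragments, so it was not their total alone. In control replicate 1 it was 13105344, against 13978342 recovered fragments.

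log2(FPKM + 0.1) was tested with limma 3.58.1 in R 4.3.3 (eBayes with trend, two-sided, Benjamini-Hochberg adjustment) over 12141 protein-coding genes, those whose mean exceeded 1 FPKM in each group. Filter and thresholds follow the study. Fold changes on this scale understate those of low genes. The study's DESeq2 test was not run, and voom stood in for a count test. Ratios were tested with exact permutation tests over 70 assignments (scipy 1.17.1). Figures were drawn with matplotlib 3.10.9. The members, the lists and the tests were chosen with earlier results of these data known. Named besides the members are the 4 wider-list genes with the smallest p and the 5 genes most correlated with *Cldn11*; other genes were named after their values were seen. Replicate pairs differed by at least 4.61 times sampling noise (chi-square per gene), more than repeat sequencing of the same library would give. That each library counts as 1 sample rests on the 4 mice per genotype that the study states. Alternatives were other pseudocounts, filters, scalings, weights and variance models, a replicate block, voom on recovered fragments and each library left out.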

Additional observations from a re-analysis of the deposited data

Results flagged for a closer look

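In 3 of the 28 groups of 4 libraries examined, 1 library lay further from its group than Dixon's 95% limit, where chance gives about 1.4. For *Jam3* this was control replicate 1, where its 20.7 FPKM compare with 10.6 to 12.0 FPKM in the other 3 control libraries. For *Cldn3* it was control replicate 4, whose 1.60 FPKM compare with 3.46 to 3.82 FPKM in the other 3. The mitochondrial share of fragments in control replicate 1 was 0.464%, against 2.97% to 3.39% in the other controls. The direction of the *Jam3* difference turned without control replicate 1, and that of *Cldn3* was kept without control replicate 4, at 0.06.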

How the results depend on the processing

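In none of 178 fits of a junction gene under 20 alternatives was the adjusted p below 0.05 (lowest 0.208). The direction reversed in 7 of them: *Tjp1* when rescaled to TPM (0.0035), *Cldn11* (-0.012) and *Ocln* (-0.037) when centred on the Sertoli list, *Cxadr* with array weights (0.15) and without control replicate 4 (0.021), *Jam3* without control replicate 1 (0.081) and *Cldn5* without control replicate 3 (-0.069), and the cause was not tested. With 1 library left out, log2 fold changes ran from -0.21 to 0.021 for *Cxadr*, from -0.24 to 0.081 for *Jam3* and from -0.069 to 0.53 for *Cldn5*, and 0 to 2 of the 9 had an unadjusted p below 0.05. *Cxadr* and *Cldn3* did not pass the filter at 5 FPKM. Over all genes, 2 calls, also 2 without the fold threshold, became 0 with no filter, 0 at 5 FPKM, 1 with autosomal centring, 1 with TPM, 0 with the replicate block, 57 (454 without the fold threshold) with array weights and 0 to 3 with 1 library left out. The 1322 genes at an unadjusted p below 0.05 became 744 at 5 FPKM, 2543 with array weights and 687 to 1889 with 1 library left out. With array weights 1 wider-list gene, *Cdh3*, reached an adjusted p of 0.0357. With 1 library left out, the ratio differences ran from -0.0053 to 0.36 for *Cldn3* to *Cldn11*, from -0.13 to 0.27 for *Cldn5* to *Cldn11* and from -0.86 to 0.11 for *Cldn5* to *Cdh5*. Same-numbered libraries correlated in their deviations at 0.0756 to 0.405, under 0.1 in 1 of 4 pairs, and the main fit did not treat the numbers as pairs. The replicate block changed no call of a junction gene, and the lowest limma adjusted p among the 9 was then 0.436, for *Cldn3*. With the block, 1777 of all genes had an unadjusted limma p below 0.05.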

Other observations

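*Cldn23*, a claudin outside the 9 genes and named after its values were seen, was at 3.92 FPKM in control replicate 1 and at 3.95 FPKM in cKO replicate 3, from 95 and 123 fragments. The other 6 libraries held 0 to 5 fragments each, or at most 0.159 FPKM. It was the only protein-coding gene above 1 FPKM in both of these libraries and below 0.2 FPKM in the other 6. Its mean was not above 1 FPKM in both groups, so it was not among the genes tested.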
